A study of Mus musculus with 59 samples.

Results

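The genes of glucose uptake and glycolysis described here are Slc2a1, Hk1, Hk2, Gpi1, Pfkl, Pfkp, Aldoa, Pgk1, Eno1 and Ldha. These 10 genes were chosen by symbol, with earlier results of these data known, out of the 24391 genes listed in each library, and all 10 were measured above 0 in every line. Glycolysis splits glucose into pyruvate in the cytosol, with a small yield of ATP and a supply of carbon for biosynthesis. Naive mouse embryonic stem cells (ESCs) and the early epiblast both make heavy use of it, and several of its genes are textbook targets of the hypoxia-inducible factors (HIF) and of MYC.

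RNA-seq was performed on 6 conditional mouse ESC lines, in all 59 libraries, to ask how subunits of Polycomb repressive complex 1 (PRC1) act when ESCs differentiate into embryoid bodies (EBs). ESCs were kept on mouse embryonic fibroblasts (MEFs) with LIF and the 3 inhibitors SU5402, PD184352 and CHIR99021, and EBs are the aggregates formed within 2 days of suspension culture without them. Every line carries ERT2-CRE, a recombinase active throughout the cells once 4-hydroxytamoxifen (4-OHT) is added, and cells without 4-OHT are called control and cells with it mutant. No library came from 4-OHT-treated cells without a conditional allele. Exposure to 4-OHT with active recombinase and the mutation itself therefore cannot be told apart. The values are TPM, transcripts among 1000000 transcripts of a library, a level already divided by transcript length, and they keep no trace of read depth.

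The Pcgf1 line (Pcgf1 f/f before and delta/delta after 4-OHT, 19 libraries) had 4 libraries of control ESCs and 5 each of mutant ESCs, control EBs and mutant EBs, and 4-OHT was given 2 days before EB formation. PCGF1 is the subunit that defines a variant PRC1. The Ring1A/B point mutant line (8 libraries, 2 per group) is Ring1a pm/pm with a conditional Ring1b allele (CPM), so that its controls already carry the RING1A point mutation and 4-OHT turns RING1B into a form without catalytic activity (pm/pm). The remaining lines, Ring1A/B (Ring1a -/- in controls and mutants alike, with Ring1b f/f or delta/delta), Pcgf2/4, Pcgf3/5 and Pcgf6 (f/f without and delta/delta with 4-OHT), had 8 libraries each and 2 per group by label. In the Ring1A/B and Pcgf6 lines 4-OHT was given when EBs were formed. The labels do not say how many clones stand for a line. In 21 of these 32 libraries the condition in the deposited file name differed from the sample label, against 0 of 27 in the Pcgf1 and point mutant lines. Fgf5, a gene of formative epiblast that ESCs lack, ranged from 0 to 35.2 TPM in the 16 libraries labelled ESC and from 0 to 46.3 TPM in the 16 labelled EB. In the 16 libraries named ESC in their files it was at most 0.816 TPM, and in the 16 named EB it was at least 7.53 TPM. For these 4 lines Hk1, Slc2a1 and Ldha are therefore given by file name, with the label of each library for Hk1, and no biology is read from calls between their labelled groups.

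The targeted gene and stage markers of the Pcgf1 line matched its labels. In control ESCs Pcgf1 stood at 12.3 ± 1.31 TPM (SD, n = 4), against 1.39 ± 0.861 TPM (SD, n = 5) in mutant ESCs. Control EBs held 12.4 ± 4.08 TPM and mutant EBs 1.68 ± 0.688 TPM (SD, n = 5 each). All 10 markers of naive pluripotency were lower and all 7 markers of formative epiblast were higher in control EBs than in control ESCs. In the point mutant line 8 of the 10 and 7 of the 7 did so in controls, but in mutant cells 0 of the 10 and 1 of the 7 passed the test. The level of a point-mutated transcript is no check of that line's labels. Nothing in the labels says that libraries of a group came from separate cultures, so each p-value measures the spread between these libraries only, which may be technical.

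The 19 libraries of the Pcgf1 line fell into 3 series by the identifiers in their file headers, number 1 alone, numbers 2 and 3, and numbers 4 and 5. Libraries of a group differed by a median of 0.057 to 0.2 (log2, over genes where the pair averaged at least 10 TPM) within a series and of 0.243 to 0.702 between series. Members of the set differed between series as well, and differences within series are given beside the pooled values. Since same-numbered libraries deviated together, though not always more than differently numbered ones, a fit with the number as a block was also made. Its values are given for this line where they change a call. In bulk RNA, fewer cells of a type and less RNA per cell cannot be told apart.

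The promoters of 3 members are shown because Ldha was the member called lower in mutant than in control EBs, Slc2a1 had the most negative difference there, and Pfkp had the second largest fall from ESCs to EBs. The letters ACGTG are a form of the core of the site bound by HIF, and CACGTG, which contains them, is the E-box bound by MYC. The other form of the HIF core, GCGTG, was not counted. Capitals mark ACGTG and its reverse complement CACGT in the 250 bases before the start of transcription, and where they overlap they form CACGTG. The sequences are those of RefSeq on GRCm38.p6, a later build than the mm9 used for the libraries, at chr7:46845554-46845803 (Ldha, plus strand), chr4:119108495-119108744 (Slc2a1, plus strand) and chr13:6648772-6649021 (Pfkp, minus strand).
Ldha: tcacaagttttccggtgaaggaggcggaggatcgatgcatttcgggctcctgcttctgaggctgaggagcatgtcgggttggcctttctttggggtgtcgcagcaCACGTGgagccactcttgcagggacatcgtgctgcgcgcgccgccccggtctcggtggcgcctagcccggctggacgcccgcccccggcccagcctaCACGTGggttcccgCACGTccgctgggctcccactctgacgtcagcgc
Slc2a1: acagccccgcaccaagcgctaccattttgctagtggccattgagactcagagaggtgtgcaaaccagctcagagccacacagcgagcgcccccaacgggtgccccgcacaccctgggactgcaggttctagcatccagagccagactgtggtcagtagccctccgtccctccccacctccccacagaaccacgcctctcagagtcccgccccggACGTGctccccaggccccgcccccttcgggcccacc
Pfkp: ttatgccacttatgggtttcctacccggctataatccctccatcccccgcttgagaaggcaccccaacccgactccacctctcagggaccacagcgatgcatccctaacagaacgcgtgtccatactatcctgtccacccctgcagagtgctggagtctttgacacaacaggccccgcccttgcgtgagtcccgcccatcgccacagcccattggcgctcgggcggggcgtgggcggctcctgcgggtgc
The Ldha window held 5 matches, counting both strands, with 2 E-boxes that lie 145 and 48 bases before the start. Slc2a1 held 1 match, 36 bases before its start, and Pfkp held none. The uncounted GCGTG or its reverse complement does occur in the windows of Slc2a1 and Pfkp. With 50 bases after the start included, ACGTG on either strand lay in 7 of the 16 windows of the 10 members (43.75%) and in 19.62% of all 32851 windows. By gene, 6 of the 10 members (60%) and 21.78% of 27025 genes had a window with it. CACGTG lay in 1 of the 16 windows (6.25%) and in 7.15% of all. A match is a description of letters and not a bound site.

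Slc2a1 encodes GLUT1, the main basal glucose transporter, and lies at chr4:118781316-118809935 (mm9, plus strand). It stood at 491, 1065, 1195 and 526 TPM in control ESCs of the Pcgf1 line (numbers 1 to 4) and at 441, 1109, 1117, 389 and 387 TPM in mutant ESCs (numbers 1 to 5). Control EBs held 511, 665, 720, 710.5 and 663 TPM, and mutant EBs 151, 308, 277.5, 368 and 342.5 TPM. In ESCs the series of numbers 2 and 3 was high in both groups, which overlapped, whereas every mutant EB library lay below every control EB library. For this and the other members, the share of all genes whose groups separate in this way is not given.

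Hexokinases trap glucose in the cell as glucose 6-phosphate. Hk1 (chr10:61731603-61842656, mm9, minus strand), the constitutive form, was at 113, 218, 252 and 108 TPM in control ESCs and 94.6, 167.5, 190 and 90.5 and 90.5 TPM in mutant ESCs. It was at 20.3, 30.6, 25.2, 34.6 and 32.5 TPM in control EBs and 18.5, 27.7, 25.8, 33.3 and 27.2 TPM in mutant EBs. All 10 EB libraries thus lay under all 9 ESC libraries, with controls and mutants overlapping at each stage. Hk2 (chr6:82675019-82724448, mm9, minus strand), the inducible hexokinase, ranged from 244 to 513 TPM in control ESCs, 203 to 462 TPM in mutant ESCs, 111 to 267 TPM in control EBs, while mutant EBs ranged from 123 to 265 TPM.

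Gpi1 (chr7:34987141-35015308, mm9, minus strand), glucose 6-phosphate isomerase, ranged from 890 to 1601 TPM in control ESCs, 595 to 983 TPM in mutant ESCs, 465 to 762 TPM in control EBs, while mutant EBs ranged from 428.5 to 592 TPM. Phosphofructokinase commits the sugar to glycolysis, and its liver-type and platelet-type subunits come from Pfkl (chr10:77449692-77472828, mm9, minus strand) and Pfkp (chr13:6579014-6648023, mm9, minus strand). Pfkl ranged from 302 to 533 TPM in control ESCs, 197 to 431 TPM in mutant ESCs, 276 to 324 TPM in control EBs, while mutant EBs ranged from 183 to 199 TPM, the last below every control EB library. Pfkp stood at 200.1, 290, 315 and 215 TPM in control ESCs, 171, 200.2, 211, 138 and 145 TPM in mutant ESCs, 31, 41.1, 26.7, 87.4 and 81.6 TPM in control EBs, and 41.7, 41.5, 36.2, 90.8 and 87.6 TPM in mutant EBs. Every EB library was below every ESC library, and numbers 4 and 5 were the highest among EBs.

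Aldoa (chr7:133938748-133944265, mm9, minus strand), the aldolase that cleaves the 6-carbon sugar, was the highest of the 10 by the median over 59 libraries, 2206 TPM. In the Pcgf1 line it ranged from 2664 to 2923 TPM in control ESCs, 2177 to 2589 TPM in mutant ESCs, 1426 to 3322 TPM in control EBs, while mutant EBs ranged from 1219 to 2540 TPM, with numbers 4 and 5 high in both EB groups. Pgk1 (chrX:103382439-103399038, mm9, plus strand), which makes the first ATP of the pathway, ranged from 1595 to 2659, 999 to 1875, 626 to 1649 and 506 to 1120 TPM in the same order of groups, and was highest in number 1 of both ESC groups.

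Ldha (chr7:54096845-54110997, mm9, plus strand) encodes the lactate dehydrogenase subunit that turns pyruvate into lactate. It stood at 2011, 1908, 2027 and 1806 TPM in control ESCs and 1769, 1690.0, 1895, 1204 and 1201 TPM in mutant ESCs. Control EBs held 1750.0, 1675, 1822, 1631 and 1571 TPM and mutant EBs 1008, 983, 1199, 872 and 877 TPM, so that the highest mutant EB library was below the lowest control EB library.

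Eno1 (chr4:149610830-149622988, mm9, plus strand) encodes enolase. It lay between 7.03 and 9.74 TPM in the 4 libraries numbered 1, and between 79.4 and 244 TPM in the other 15 libraries of the Pcgf1 line. Windows were taken from the transcript with the longest coding sequence of each gene. Of the 50-base windows of the Eno1 transcript, 72.2% also occur elsewhere in the genome, and 65.4% of 75-base windows. Its near-identical copy Eno1b was listed at 1161 to 2264 TPM in this line. The sum of both varied less within groups. Control ESCs had sums between 1897 and 2104 TPM, mutant ESCs between 1241 and 1741 TPM, control EBs between 2162 and 2333 TPM, and mutant EBs between 1367 and 1739 TPM. Pgk1 shared 92.9% of its 50-base windows with other places, Gpi1 31.4%, Ldha 29.1%, Aldoa 14.8%, Pfkl 0.38%, and Slc2a1, Hk1, Hk2 and Pfkp 0%. Values of Eno1 and Pgk1 are uncertain on this ground.

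**Figure D1:**
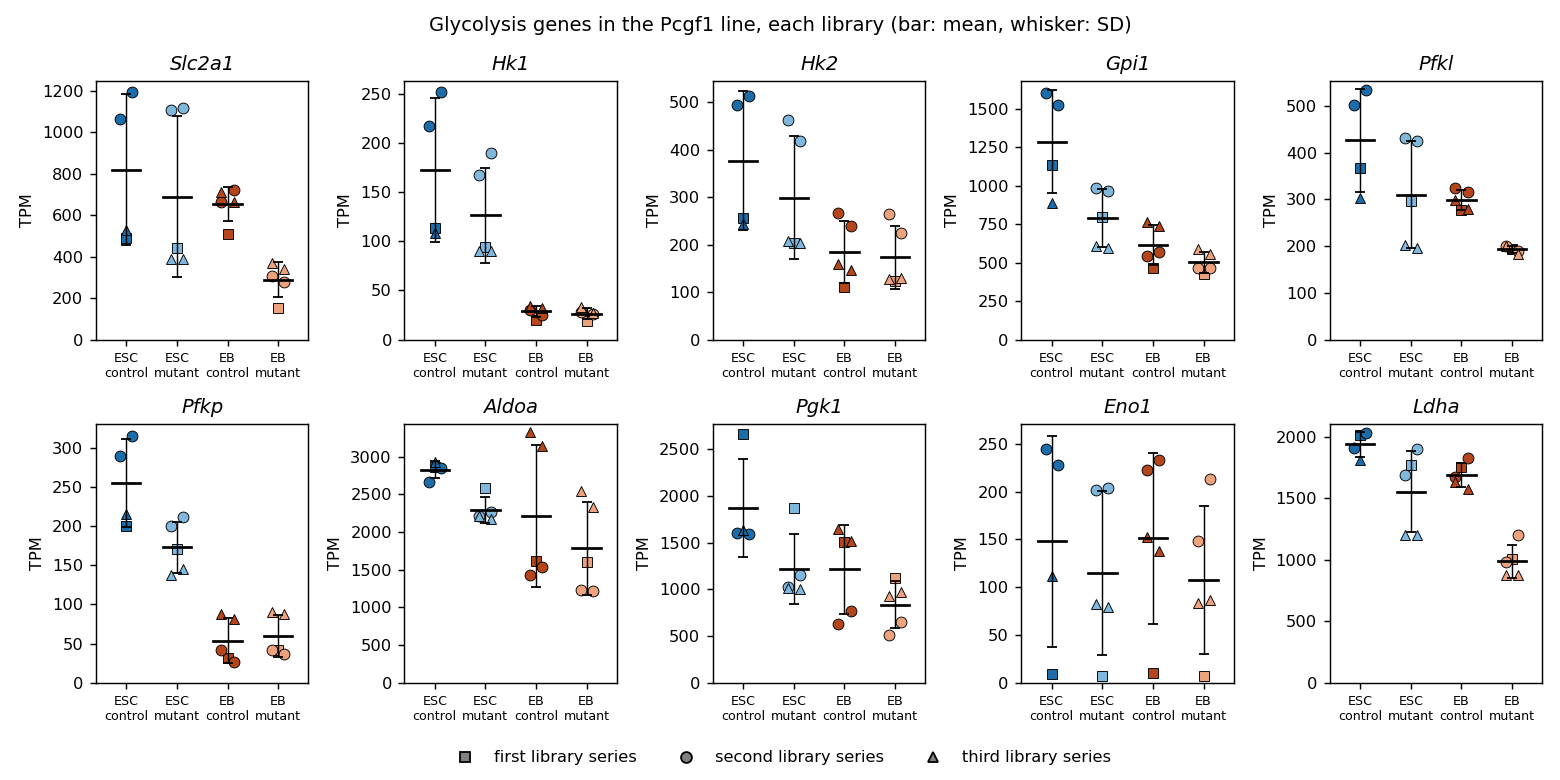
TPM of the 10 genes in each of the 19 libraries of the Pcgf1 line, by group on the x axis and on a linear y axis from 0. Point shapes give the library series, bars the mean and whiskers the SD. Hk1 and Pfkp show EB libraries below all ESC libraries, and Slc2a1, Pfkl and Ldha show mutant EBs below all control EBs. The share of all genes that separate in this way is not given.

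The fall from control ESCs to control EBs in the Pcgf1 line was largest for Hk1 and Pfkp, which stood 5.71-fold and 5.26-fold lower. Changes were tested with limma on log2(TPM + 0.1), with p-values adjusted over 20594 genes by the Benjamini-Hochberg method and called under 0.05. Fold and log2 changes are on this scale. Hk1 fell by 2.51 (SE 0.29, adjusted p = 4.77e-06 by limma), Pfkp by 2.39 (SE 0.35, adjusted p = 6.42e-05), Gpi1 by 1.05 (SE 0.22, adjusted p = 0.00139) and Hk2 by 1.01 (SE 0.35, adjusted p = 0.0412). These are 4 of the 10 members, where 13.4% of all genes tested were called lower, and the median log2 change was -0.59 over the members and -0.00454 over all genes, of which 11.5% were called higher. The other members stood at -0.70 (Pgk1), -0.48 (Pfkl), -0.46 (Aldoa), -0.22 (Slc2a1), -0.20 (Ldha) and 0.24 (Eno1), none past the threshold.

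With the replicate number as a block 6 members were lower, with Pgk1 (adjusted p = 0.0065 by limma) and Aldoa (0.0426) added, beside 23.3% of all genes. The call of Hk2 rested on single libraries. It was lost without control ESC number 2 or 3 or control EB number 1, 4 or 5, with log2 values of -0.98 to -0.84 and a highest adjusted p of 0.136 by limma. Within the first, the second and the third series Hk1 differed by -2.47, -3.07 and -1.69 and Pfkp by -2.69, -3.19 and -1.35. Gpi1 differed by -1.29, -1.49 and -0.25, and Slc2a1 by 0.06, -0.71 and 0.38, so that the third series had the smallest falls and Slc2a1 had no common direction.

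ESCs were grown on feeder fibroblasts, and EBs on low attachment dishes. The summed level of 10 fibroblast markers, among them the collagens Col1a1 and Col3a1, lay between 196 and 286 TPM in control ESCs and between 150.1 and 227 TPM in mutant ESCs. Control EBs had sums between 24.8 and 48.5 TPM and mutant EBs between 8.11 and 15.8 TPM. Of the 10 markers 5 were lower and 2 higher in control EBs than in control ESCs, and none was at 0 in all control libraries of a stage. Their part in the fall of Hk1, Pfkp, Gpi1 and Hk2 was not tested.

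Mutant EBs of the Pcgf1 line differed from mutant ESCs in 5 members, all lower, beside 10.2% of all genes lower and 8.13% higher. Hk1 fell by 2.20 (SE 0.27, adjusted p = 1.27e-05 by limma) and Pfkp by 1.63 (SE 0.33, adjusted p = 0.0017). Slc2a1 fell by 1.13 (SE 0.35, adjusted p = 0.0285 by limma), Ldha by 0.63 (SE 0.16, adjusted p = 0.00849) and Gpi1 by 0.63 (SE 0.20, adjusted p = 0.0371). In contrast to controls, glucose transporter and lactate dehydrogenase thus passed the test in mutants, but the difference between both stage changes did not (Slc2a1 -0.91, SE 0.51, adjusted p = 0.967 by limma, and Ldha -0.44, SE 0.23, adjusted p = 0.936). With the replicate block 8 members were lower, all but Aldoa and Eno1, beside 20% of all genes. Leaving out single libraries gave 3 to 6 members. Slc2a1 was lost without mutant ESC number 2 or 3 or mutant EB number 1 or 3 (-1.13 to -0.91). Gpi1 was lost without number 1, 2 or 3 of either group (-0.62 to -0.54), and Pfkl was gained without mutant ESC number 4 or 5 (-0.74 and -0.75).

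**Figure D2:**
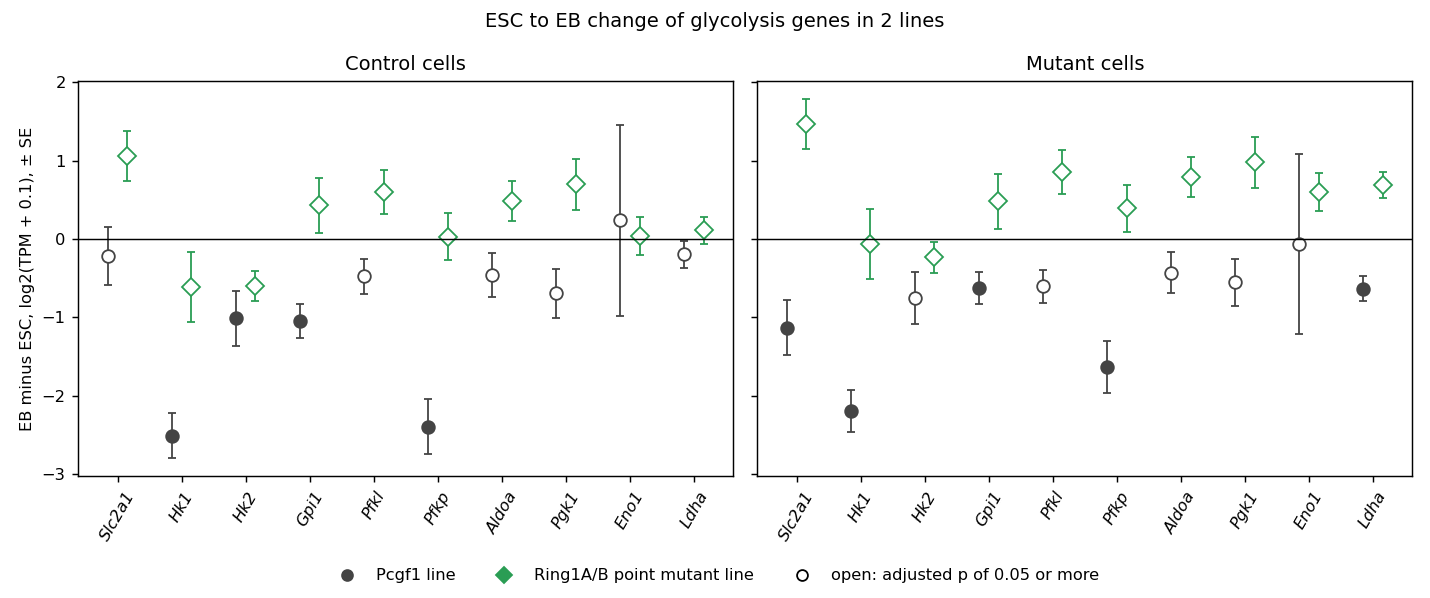
Difference between EBs and ESCs in log2(TPM + 0.1) for the 10 genes in control cells (left) and mutant cells (right), in the Pcgf1 line (circles) and the Ring1A/B point mutant line (diamonds), with the SE of the fit. Filled points passed an adjusted p of 0.05 and open points did not. Hk1 and Pfkp lie lowest in the Pcgf1 line, while Slc2a1 lies at 1.06 and 1.47 in the point mutant line, both open.

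Deletion of Pcgf1 was compared at each stage. In EBs, Ldha was 1.72-fold lower in mutants (log2 -0.78, SE 0.16, adjusted p = 0.0139 by limma), the only member called, beside 0.874% of all genes called lower and 1.08% higher. Slc2a1 stood at -1.23 (SE 0.35, adjusted p = 0.0801 by limma) and Pfkl at -0.63 (SE 0.21, adjusted p = 0.16), neither past the threshold. Same-numbered libraries differed in the same direction in 5 of 5 pairs for these genes, by -1.76, -1.11, -1.38, -0.95 and -0.95 for Slc2a1, by -0.80, -0.77, -0.60, -0.90 and -0.84 for Ldha, and by -0.73 to -0.51 for Pfkl. In all, 7 of the 10 members were lower in each of the 5 pairs, all but Hk1, Hk2 and Pfkp, beside 13% of all genes and 14.2% of the 1888 genes averaging 100 TPM or more. In the fit with the replicate block 4 members were lower, Ldha (adjusted p = 4.3e-05 by limma), Eno1 (-0.54, adjusted p = 0.00503), Slc2a1 (adjusted p = 0.00688) and Pfkl (adjusted p = 0.0164), beside 5.58% of all genes.

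The call of Ldha in EBs kept an adjusted p of 0.0106 to 0.0494 (limma) when each library was left out in turn. It was not kept with the 4 libraries numbered 1 left out (adjusted p = 0.0632), in a fit of only the 2 groups (adjusted p = 0.0598), with quantile normalization (log2 -0.69, adjusted p = 0.293) or with the 3 series as replicates (adjusted p = 0.379, and 0.00723 with the series as a block). Within the series Ldha differed by -0.80, -0.69 and -0.87 and Slc2a1 by -1.76, -1.24 and -0.95. By the sum of Eno1 and Eno1b, enolase stood at -0.53 (SE 0.15, adjusted p = 0.0739 by limma). Pfkp was the single member higher in mutants in all 5 pairs, by 0.01 to 0.44, and stood at 0.21 (SE 0.33, adjusted p = 0.937 by limma). Hk1 (-0.11), Hk2 (-0.09), Gpi1 (-0.28), Aldoa (-0.28) and Pgk1 (-0.49) did not pass the threshold either. Stage markers moved in the same comparison. Of the 10 naive markers 2 were higher in mutant EBs, Nr0b1 (1.26) and Tfcp2l1 (1.52), and 7 with the replicate block, with sums between 569 and 1465 TPM in mutants against 384.5 to 728.8 TPM in controls. Of the 7 formative markers 0 were called, and 3 were lower with the block, Dnmt3b, Pou3f1 and Sall2, with sums between 501.8 and 2394 TPM against 1365 to 3541 TPM. Their part in the level of Ldha was not tested.

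In ESCs all 10 members had lower means in mutants, with a median log2 change of -0.39 against -0.02 over all genes, but limma called 0 of them, with or without the block, beside 0.32% of all genes called lower (2.78% with the block). At an unadjusted p under 0.05, 2 of the 10 were lower beside 4.82% of all genes, and with the block 6 of the 10 beside 11.3%. Gpi1 (-0.70, SE 0.22, adjusted p = 0.199 by limma) and Pgk1 (-0.64, SE 0.32, adjusted p = 0.611) had the lowest values. In the 4 same-numbered pairs 9 of the 10 members were lower in every mutant library, beside 19.2% of all genes and 22.9% of the genes averaging 100 TPM or more. For none of the 10 did the test call a difference between the effects of the deletion in EBs and in ESCs, where 0.00486% of all genes were called. At an unadjusted p under 0.05 the count was 0 of the 10, beside 5.8% of all genes. With the block it was 2, Ldha (-0.49, adjusted p = 0.0565 by limma) and Slc2a1 (-0.94, adjusted p = 0.24), beside 15.7%, and again neither was called. Across both stages, the sum of the 10 members had a median of 10340 TPM in control ESCs, 8241 TPM in mutant ESCs, 6303 TPM in control EBs and 4691 TPM in mutant EBs.

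**Figure D3:**
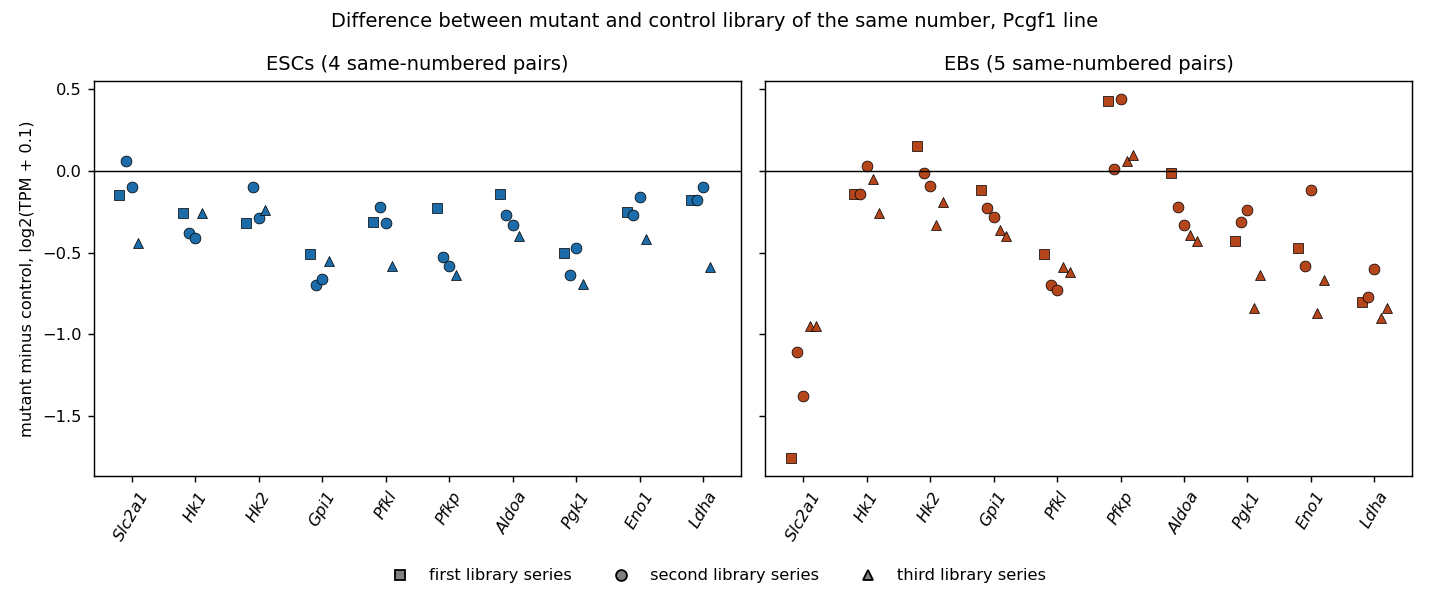
Difference in log2(TPM + 0.1) between the mutant and the control library of the same number in the Pcgf1 line, in ESCs (left, 4 pairs) and EBs (right, 5 pairs), for each of the 10 genes. Point shapes give the library series and the line marks no difference. In EBs the points of Slc2a1, Pfkl and Ldha all lie below the line, at -0.95 or lower for Slc2a1, and those of Pfkp lie just above it.

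For the point mutant line limma called 0 of the 10 members in each of 4 comparisons when fitted without a block. For control EBs against ESCs 2.73% of all genes were called higher and 2% lower, and the members had a median log2 change of 0.27. Slc2a1 stood at 312 and 525 TPM in control ESCs and 623 and 1141 TPM in control EBs (log2 1.06, SE 0.32, adjusted p = 0.114 by limma). It stood at 243 and 271 TPM in mutant ESCs and 682 and 739 TPM in mutant EBs (1.47, SE 0.32, adjusted p = 0.197). Pfkp differed by 0.03 (SE 0.30), with 135 and 197 TPM in control ESCs and 136 and 202 TPM in control EBs. Hk1 was at 35.8 and 66.5 TPM in control ESCs and 23.3 and 43.3 TPM in control EBs (-0.62, SE 0.45, adjusted p = 0.492 by limma).

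Of the 10 members 2 (1 higher, 1 lower) had an unadjusted p under 0.05 in control cells, beside 20.3% of all genes. In mutant cells 6, all higher, did so, beside 4.73% of all genes higher at that p. After adjustment 0.0493% of all genes were called higher there and 0.0838% lower. Fibroblast markers summed to 39.9 and 44.3 TPM in the control ESC libraries and 31.1 and 35.3 TPM in those of control EBs. The sums were 70.9 and 74.2 TPM in mutant ESCs, and 76.4 and 77.8 TPM in mutant EBs.

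Mutant ESCs of this line had lower means than control ESCs in 9 of the 10 members, all but Hk1 (0.06), with a median of -0.60. Ldha stood at 1393 and 1836 TPM in control ESCs and 870 and 1036 TPM in mutant ESCs (-0.75, SE 0.17, adjusted p = 0.0669 by limma). Beside this, 0.197% of all genes were called lower and 2.34% higher, and at an unadjusted p under 0.05 3 of the 10 members and 2.48% of all genes were lower. Over all genes the median was 0.12 higher in mutant ESCs and 0.10 higher in mutant EBs. With median-of-ratios scaling, which sets that shift to 0, the median of the members was -0.75 in ESCs and -0.34 in EBs. In EBs limma called 0 members (0 at an unadjusted p under 0.05, beside 20.7% of all genes), with a median of -0.21 and Ldha at 1705 and 1747 TPM in controls and 1390 and 1675 TPM in mutants, beside 0.764% of all genes lower and 3.76% higher. These splits of 475 higher to 40 lower genes in ESCs and 763 to 155 in EBs became 437 to 75 and 634 to 295 with median-of-ratios scaling, and 167 to 40 and 481 to 299 with quantile normalization.

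The stage change of control cells was then compared between the lines. It was more negative in the Pcgf1 line for Pfkp (difference -2.42, SE 0.60, adjusted p = 0.0274 by limma) and Gpi1 (-1.48, SE 0.41, adjusted p = 0.0499), 2 of 10 members beside 2.36% of all genes. Hk1 stood at -1.90 (SE 0.55, adjusted p = 0.0605 by limma). The fit with the replicate block called 6 members, Aldoa, Gpi1, Hk1, Pfkl, Pfkp and Pgk1, beside 10.2% of all genes. Leaving out single libraries gave 0 to 3 members. Pfkp was lost without control ESC number 2 or 3 of the Pcgf1 line, or control ESC number 1 or control EB number 2 of the point mutant line (-2.35 to -2.14). Gpi1 was lost in 9 of 13 such fits (-1.64 to -0.96), those without control ESC or EB number 1, 2 or 3 of the Pcgf1 line, either control ESC library or control EB number 2 of the point mutant line. Hk1 was gained without control ESC number 1 or 4 of the Pcgf1 line, or control EB number 1 or control ESC number 2 of the point mutant line (-2.34 to -2.07). The lines also differ in library series, and line and series cannot be told apart.

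Among 16 listed HIF targets outside glycolysis, those that passed the test were lower in control EBs of the Pcgf1 line. In control EBs of the point mutant line those that passed were higher. Of the 16 genes, 7 were lower and 0 higher in control EBs than ESCs of the Pcgf1 line, with a median of -1.03. In the point mutant line 5 were higher and 0 lower, with a median of 1.32. P4ha1, a prolyl hydroxylase of collagen, ranged between 57.1 and 114 TPM in control ESCs and between 12.2 and 43.3 TPM in control EBs of the Pcgf1 line (-2.04, SE 0.38, adjusted p = 0.000569 by limma). The point mutant line held it at 22.1 and 36 TPM in control ESCs and 60.9 and 116 TPM in control EBs (1.57, SE 0.33, adjusted p = 0.0439). The difference between lines was called for P4ha1 (-3.61), Egln3 (-3.17), Bnip3 (-3.10), P4ha2 (-2.20) and Ero1l (-2.12), and the median of the 16 was -2.24. With the replicate block 15 of the 16 were called lower in this comparison of lines.

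Among the 7 lower genes of the Pcgf1 line, Ndrg1 stood at -3.32, the growth factor Vegfa at -2.49, Ero1l at -1.51 and Egln1, a HIF prolyl hydroxylase, at -1.13. The 5 higher genes of the point mutant line were Adm (4.20), Egln3 (3.25), Ddit4 (2.38), P4ha1 and Ankrd37 (1.52). Between mutant and control EBs of the Pcgf1 line 1 of the 16 was called, P4ha2 (-0.80, SE 0.18, adjusted p = 0.0228 by limma). P4ha2 was instead higher in mutant than control cells of the point mutant line, by 2.02 in ESCs and 1.43 in EBs. Between mutant EBs and mutant ESCs of the Pcgf1 line 4 of the 16 were lower, P4ha2 (-1.42), Egln1 (-1.21), P4ha1 (-1.19) and Ero1l (-0.87). The fit with the replicate block called 8 of the 16 lower there, and, in mutants against controls, 1 lower in ESCs and 2 lower and 1 higher in EBs. Over all 20594 genes the block called 4120 lower and 3453 higher between mutant stages, and 4795 and 4255 between control stages. In mutants against controls it called 572 lower and 522 higher in ESCs, and 1149 and 994 in EBs. These counts also apply to the lists below. Shares of all genes called without the block stand with the members above.

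**Figure D4:**
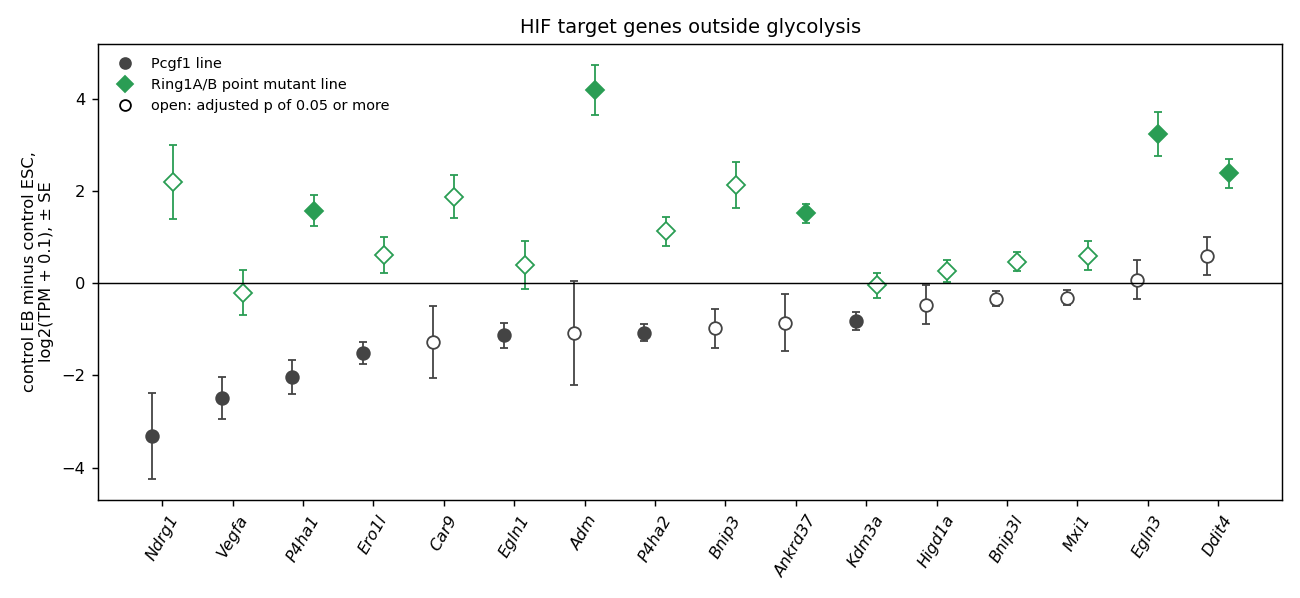
Difference between control EBs and control ESCs in log2(TPM + 0.1), with the SE of the fit, for 16 HIF targets outside glycolysis in the Pcgf1 line and the Ring1A/B point mutant line. Filled points passed an adjusted p of 0.05. Points of the Pcgf1 line lie mostly below 0, with a median of -1.03, and those of the point mutant line mostly above, with a median of 1.32.

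The remaining steps of the pathway did not move as a block. Of 29 other glycolysis genes tested in the Pcgf1 line, 10 were lower and 1 higher in control EBs than in control ESCs, with a median of -0.17. Slc2a3 (GLUT3), the transporter with the highest affinity for glucose, fell by 2.27 (SE 0.33, adjusted p = 5.59e-05 by limma), from 1205 to 1841 TPM in control ESCs to 194 to 529 TPM in control EBs. Aldoc (-1.85), Pfkfb2 (-1.56), Ldhc (-1.52) and Eno2 (-1.50) were lower too, at levels far under those of the main isoforms, and the lactate carrier Slc16a1 was the single gene higher (0.35). Gapdh (0.07), Tpi1 (-0.21), Pgam1 (-0.16) and Pkm (0.11), which carry the central and last steps, did not pass the threshold. Of their 50-base windows 85.6% (Gapdh), 23.6% (Tpi1), 91.9% (Pgam1) and 41.4% (Pkm) also occur elsewhere in the genome. Values of Gapdh and Pgam1 above all are uncertain on this ground, here and in the comparisons below. In mutant cells 8 were lower and 1 higher, led by Slc2a3 (-2.14), Pgam2 (-1.66), Ldhc (-1.45), Aldoc (-1.43) and Eno2 (-0.92), with the muscle enolase Eno3 the single gene higher (0.82). With the replicate block 12 were lower and 3 higher there, and 11 lower and 5 higher in control cells.

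Between mutant and control cells of the Pcgf1 line 1 of the 29 was called at each stage. Ldhb, the lactate dehydrogenase subunit that favours pyruvate, was lower in mutant ESCs (638 to 931 TPM in controls, 269.5 to 302 TPM in mutants, log2 -1.43, SE 0.24, adjusted p = 0.00993 by limma). Slc16a1 was lower in mutant EBs (-0.43, SE 0.11, adjusted p = 0.0448). With the replicate block 5 were lower in mutant ESCs, and 7 lower and 1 higher in mutant EBs. In EBs Tpi1 (-0.42), Pgam1 (-0.50), Pkm (-0.25) and Gapdh (-0.09) did not pass the threshold. In the point mutant line, 2 of 30 genes were higher and 1 lower in control EBs than ESCs, Pfkm (1.74), the lactate carrier Slc16a3 (1.49) and Tigar (-1.08), and Pgam2 (1.39) and Tigar (0.85) were higher in mutant than control EBs. Between the lines, the stage change was lower in the Pcgf1 line for Aldoc (-3.18), the scarce hexokinase Hkdc1 (-2.86, under 1 TPM in each library of both lines), Eno2 (-2.41) and Pfkm (-1.62), and did not differ past the threshold for Gapdh (-0.20), Tpi1 (-0.79), Pgam1 (-0.05) or Pkm (-0.17). With the block this comparison called 10 lower and 1 higher.

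Branches of glucose use gave few calls. Of 8 genes of gluconeogenesis and the pentose phosphate pathway, G6pdx (0.79) and Pgd (0.48), both dehydrogenases that yield NADPH, were higher in control EBs than control ESCs of the Pcgf1 line, and Pgd (0.48) in mutant EBs than mutant ESCs. Pck2 (0.73) and Pgd (0.39) were higher in mutant than control EBs. Of 10 genes of pyruvate entry into mitochondria, Pdk4 (-1.72), a kinase that inhibits pyruvate dehydrogenase, and Mpc1 (-1.26), part of the pyruvate carrier, were lower in control EBs of the Pcgf1 line, and Pdk1 was higher in its mutant EBs than mutant ESCs (0.79). In control EBs of the point mutant line Pdk1 was higher (0.98) and Pdha1 lower (-0.67), and the stage change of Pdk4 (-2.84) and Pdk2 (-1.50) was lower in the Pcgf1 line. With the replicate block 5 of the 10 were lower in control EBs, and 4 lower and 1 higher in mutant EBs, than in ESCs of the Pcgf1 line, and 2 were higher and 1 lower in mutant than control EBs. Of the 8, 3 were then higher in mutant EBs than mutant ESCs, 1 in mutant than control ESCs, and 2 in the comparison of lines.

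Among 6 regulators, Myc was higher in control EBs (between 24.6 and 104 TPM) than control ESCs (between 3.82 and 8.49 TPM) of the Pcgf1 line (2.97, SE 0.48, adjusted p = 0.000165 by limma). Myc was also higher in mutant EBs than mutant ESCs (2.74). Vhl, which targets HIF for degradation, was lower (-0.60 in controls and -0.59 in mutants). Epas1, which encodes HIF2α, lay between 14.5 and 65.1 TPM in control EBs and between 92 and 368 TPM in mutant EBs (2.22, SE 0.43, adjusted p = 0.00967 by limma), and was 1.55 higher in mutant EBs than mutant ESCs. In the point mutant line Epas1 (1.35) and Mycn (0.96) were higher in control EBs than ESCs, and Mycn was lower in mutant than control EBs (-1.49). With the replicate block 3 regulators were higher and 1 lower between stages in controls of the Pcgf1 line, 4 and 1 in mutants, 1 and 2 in mutant against control ESCs, 1 and 1 in EBs, and 1 and 1 in the comparison of lines. The block also called 1 regulator and 1 HIF target higher in the difference between the effects of the deletion in EBs and ESCs. There it called 172 of all 20594 genes higher.

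Many calls among the genes of these 5 lists rested on single libraries. When each library was left out in turn, the Pcgf1 line kept 18 of 24 calls between stages in controls, and Pgam2, Ldhc, Slc16a1, G6pdx and Mpc1 were among those lost. In mutants 13 of 18 were kept, all but Hkdc1, Ldhc, Pfkfb2, P4ha1 and Epas1. The call of Ldhb in ESCs was kept, and of 5 calls in EBs that of Epas1, while Slc16a1, Pck2, Pgd and P4ha2 were lost without at least 1 library (highest adjusted p = 0.132 by limma). In the point mutant line 0 of 12 calls between stages in controls, 0 of 1 in ESCs and 0 of 4 in EBs were kept in every such fit (highest adjusted p = 0.264, 0.204 and 0.254). Here 1 library then stands for a group and is assumed to vary like the others. Between lines 2 of 11 calls were kept, P4ha1 and P4ha2, and the other 9 were lost without control ESC number 1 or control EB number 2 of the point mutant line among others (highest adjusted p = 0.415).

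Among 6 markers of primitive endoderm, Gata4 and Gata6 were called between mutants and controls. The sum over the 6 lay between 8.38 and 22.7 TPM in mutant EBs of the Pcgf1 line and between 6.83 and 18.8 TPM in its control EBs, where 2 of the 6, Gata4 and Gata6, were higher in mutants (4 with the replicate block). The point mutant line had sums of 4.96 and 6.18 TPM in control ESCs and 23.7 and 25.2 TPM in mutant ESCs, where the same 2 genes were higher, and of 30.6 and 33.6 TPM in mutant EBs against 13.7 and 18.4 TPM in control EBs, where Gata6 was. Dab2 had lower means in mutant EBs, 5.08 ± 1.45 against 9.1 ± 4.78 TPM (SD, n = 5 each) in the Pcgf1 line, and did not pass the test in either line. None of the 6 was at 0 in all libraries of a group. Whether cells of this type were present, and their part in the levels of Ldha and Slc2a1, was not tested.

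Across all 59 libraries, with each gene taken relative to the mean of its line, the members were correlated with each other to unequal degrees. These correlations are a description over libraries that share lines and series. Over the 45 pairs of members r ranged from -0.14 to 0.89 with a median of 0.50. With the mean of the other 9 members r was highest for Gpi1 (0.85) and Pfkl (0.82) and lowest for Hk1 (0.52) and Eno1 (0.28). Among 8696 genes with a mean of at least 10 TPM and outside the lists used, those most like the mean of the 10 members were Bhlhe40 (r = 0.877), Kdm4b (0.873), Dock6 (0.871), Syngr1 (0.862) and Pgm2 (0.85).

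**Figure D5:**
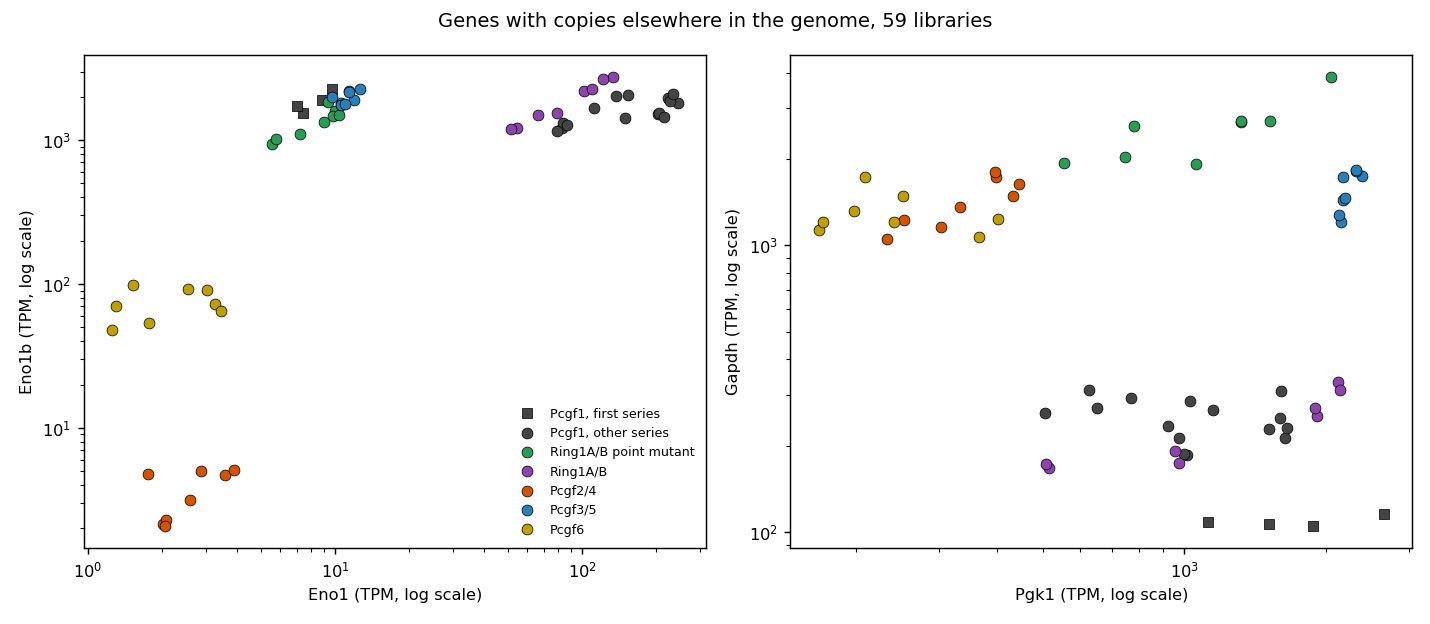
TPM of Eno1 against Eno1b (left) and of Pgk1 against Gapdh (right) in all 59 libraries, on logarithmic axes, coloured by line, with squares for the first series of the Pcgf1 line. Lines differ in Eno1b, at 2.09 to 5.1 TPM in the Pcgf2/4 line and 1161 to 2264 TPM in the Pcgf1 line, and the first series of the Pcgf1 line lies apart from its other libraries in Eno1.

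Genes with near-identical copies differed widely in level between lines. Eno1 ranged from 1.25 to 244 TPM and Eno1b from 2.09 to 2747 TPM over all libraries. Eno1b lay between 2.09 and 5.1 TPM in the Pcgf2/4 line and between 47.7 and 98 TPM in the Pcgf6 line, against 946 TPM or more in each library of the other lines. Gapdh, of whose 50-base windows 85.6% occur elsewhere, was at 105 to 312 TPM in the Pcgf1 line and 167 to 334 TPM in the Ring1A/B line, and at 1050.0 to 3859 TPM in the others. Pgk1 was at 167 to 444 TPM in the Pcgf2/4 and Pcgf6 lines. Over all libraries the highest level was 195-fold the lowest for Eno1 and 16-fold for Pgk1. For the members without a shared window it was 35-fold for Hk1, 12.3-fold for Pfkp, 7.93-fold for Slc2a1 and 7.35-fold for Hk2. The part of shared windows in these spans was not tested.

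In the 4 lines with conflicting designations, Hk1 followed the file names. In the Pcgf2/4 line the 4 libraries named ESC were at 59.5, 46.4, 31.9 and 39.2 TPM, of which the first 2 are labelled control and mutant ESC and the last 2 control and mutant EB. The 4 named EB were at 13.1 and 11.6 TPM (labelled control and mutant ESC) and 13 and 14.2 TPM (labelled control and mutant EB). In the Pcgf6 line, in the same order, the libraries named ESC held 58, 60.8, 31.4 and 28.1 TPM and those named EB 7.2, 9.07, 12.8 and 18.2 TPM. In both lines the file names give the first 2 values of each stage as control and the last 2 as mutant. Libraries labelled control and mutant thus share a state by name. Libraries of the same file name resembled each other in both lines, whatever their label.

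In the Pcgf3/5 line the 4 libraries named ESC held 83.3 and 72.5 TPM of Hk1 (both labelled control ESC), 87.1 TPM (labelled mutant ESC) and 80.7 TPM (labelled mutant EB). The 4 named EB held 32.5 TPM (labelled mutant ESC), 33.6 and 43.1 TPM (both labelled control EB) and 39.4 TPM (labelled mutant EB). By file name, the libraries at 87.1 and 32.5 TPM are control and those at 80.7 and 39.4 TPM mutant. Each pair labelled control holds a control and a mutant library by name. In the Ring1A/B line label and name agreed for control ESCs (133.5 and 141 TPM) and mutant EBs (39.6 and 37.7 TPM). The libraries labelled mutant ESC and named control EB held 50.9 and 50 TPM, and those labelled control EB and named mutant ESC held 80.8 and 81.3 TPM.

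Slc2a1 differed from Hk1 in these lines. In the Pcgf2/4 line it was at 307, 280.1, 210.2 and 239 TPM in the libraries named ESC and at 464, 503, 454 and 475 TPM in those named EB, in the order given for Hk1. In the Pcgf6 line it was at 235, 257, 183 and 178 TPM and at 422, 490.3, 404 and 488 TPM, so that libraries named EB were higher in both lines. In the Pcgf3/5 line the libraries named ESC ranged from 651 to 720 TPM and those named EB from 792 to 971 TPM. In the Ring1A/B line the libraries named control ESC held 718.5 and 736.5 TPM, named control EB 877 and 870.4 TPM, named mutant ESC 432 and 455 TPM, and named mutant EB 342 and 328 TPM.

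Ldha was likewise higher in libraries named EB in the Pcgf2/4 and Pcgf6 lines, but not in the Pcgf3/5 line. In the Pcgf6 line it ranged from 935 to 1134 TPM in the libraries named ESC and from 1282 to 1778 TPM in those named EB. In the Pcgf2/4 line it ranged from 1177 to 1430.0 TPM in the libraries named ESC. All those named EB were higher there, up to 1720 TPM. In the Pcgf3/5 line it ranged from 1916 to 2003 TPM in the libraries named ESC and from 1281 to 1565 TPM in those named EB. In the Ring1A/B line it was lowest in mutant EBs, where label and name agreed (760 and 710 TPM), against 1673 and 1697 TPM in control ESCs.

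For the Ring1A/B line, the groups whose labels and names agree, mutant EBs and control ESCs, differed in all 10 members, all lower in mutant EBs, beside 18.8% of all genes, by 1.00 (Eno1) to 1.90 (Pgk1) on the log2 scale. Stage and deletion cannot be told apart in this comparison. By label, limma called 10 members lower in control EBs than ESCs (14.6% of all genes), 9 lower in mutant EBs than ESCs (19.9%), 10 lower in mutant than control EBs (14.1%), and 5 higher (25.2%) and 3 lower (23.6%) in mutant than control ESCs. Here Fgf5 was at 0.54 to 0.791 TPM in libraries labelled control EB and 27.5 to 28 TPM in those labelled mutant ESC. The labels of these 2 groups thus go against the stage marker, and no effect of stage or deletion is read from these calls. In the Pcgf2/4, Pcgf3/5 and Pcgf6 lines limma called 0 members in each of 4 comparisons by label, beside 0% of all genes in the Pcgf2/4 and Pcgf6 lines and 0.0601%, 0%, 0.0401% and 0.0301% in the Pcgf3/5 line. At an unadjusted p under 0.05 the count was 1 member, lower, for control EBs against ESCs of the Pcgf3/5 line (5.51% of all genes), 2, both lower, for mutant EBs against ESCs of the Pcgf6 line (0.579%) and 0 in the other comparisons.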

How the data were processed

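RNA-seq was performed on poly(A) RNA as 75 bp or 50 bp single-end reads. The authors aligned reads with STAR (version 2.5.2b) to mm9 and deposited TPM per gene symbol, while the step from reads to TPM is not given in the sources used here. TPM keeps no depth, which left intervals for counting error out of reach. Libraries were grouped by sample labels. A library with replicate 4 in its title and 5 in its characteristics was taken as 4. No pair of 1711 pairs of libraries held identical values. Models on log2(TPM + 0.1) were fitted by limma (version 3.58.1, R version 4.3.3), with 1 fit per line over 4 groups, with a variance trend, for genes above 0 TPM in at least 1 library, and p-values were adjusted over all these genes. A joint fit compared the stage change of 2 lines. The authors used DESeq2 on counts, which were not used here. Same-numbered libraries of the Pcgf1 line had deviations from group means that correlated at r = 0.317 to 0.653 over 13400 genes. The numbers in the labels were therefore taken to pair them. Some libraries correlated more with another number, as number 4 did between control stages (r = 0.459 against 0.334). Whether libraries pair by number or only by series is thus not settled.

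As alternatives, the pseudocount was 1, genes under a mean of 1 TPM were dropped, TPM were scaled by median of ratios or quantiles, the replicate number was a block, only the compared groups were fitted, or a single library was left out. Chosen after seeing the data were leaving out the first series of the Pcgf1 line, series means as replicates, the sum of Eno1 and Eno1b, and a crossed block. The members and lists were chosen with earlier results of these data known. Named genes are all 10 members, Gapdh, Tpi1, Pgam1 and Pkm, up to 5 genes per list past the threshold by size with at least 1 TPM in a group, 5 genes by likeness, single genes that make up a small count, and checks of labels. Transcript windows were matched to NCBIM37 (mm9) and promoters are RefSeq's (GRCm38.p6). Python (version 3.11.15) with pandas (version 2.3.3), numpy (version 2.4.6) and matplotlib (version 3.10.9) made tables and plots.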

Additional observations from a re-analysis of the deposited data

Results flagged for a closer look

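Among 40 groups of 4 or 5 libraries, 7 had a library whose gap to the nearest other library, as a share of the range of the group, passed Dixon's critical value, where chance passes about 1 in 20. All 7 were library number 1 of the Pcgf1 line, the only library of the first series in its group. Pgk1 was high there in control ESCs (2659 TPM against 1595 to 1635 TPM, gap share 0.952) and in mutant ESCs (1875 TPM against 999 to 1150.0 TPM, 0.776). Eno1 was low in mutant ESCs (7.39 TPM against 79.4 to 204 TPM, 0.714), control EBs (9.74 TPM against 138 to 233 TPM, 0.834) and mutant EBs (7.03 TPM against 83.5 to 214 TPM, 0.724). Slc2a1 was low in control EBs (511 TPM against 663 to 720 TPM, 0.759), and Aldoa was high in mutant ESCs (2589 TPM against 2177 to 2272 TPM, 0.754).

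The change from control ESCs to control EBs differed between the Pcgf1 and point mutant lines for Gpi1 (difference -1.48 on the log2 scale, adjusted p = 0.0499 by limma) and Pfkp (-2.42, adjusted p = 0.0274).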

How the results depend on the processing

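For mutant against control EBs of the Pcgf1 line, 1 member was called, against 2 with median-of-ratios scaling, 0 with quantile normalization, 4 with the replicate block, 0 without the first series, 0 with series means and 3 with series means and series as a block. For mutant EBs against mutant ESCs, 5 were called, against 8 with the block, 2 without the first series, 2 with series means and 3 to 6 with single libraries left out. For the difference between lines, 2 were called, against 6 with the block, 0 without the first series, 0 with series means and 0 to 3 with single libraries left out. In the point mutant line, same-numbered libraries correlated at r = 0.258 to 0.381 over 2 pairs and share only a number. There the block gave 6 calls for control EBs against ESCs (Aldoa, Pfkl, Pgk1 and Slc2a1 higher, Hk1 and Hk2 lower), 4 for mutant EBs against ESCs (all higher), 4 for mutant against control ESCs (all lower) and 1 for mutant against control EBs (Hk1 higher), and genes with a mean of at least 1 TPM gave 1 for mutant against control ESCs, all against 0. The Ring1A/B line without conflicting libraries gave 10. In the Pcgf3/5 line, where r was -0.79 between stages in mutants, crossing the ESC numbers in the block gave 0 calls. The block changed no other count of members by over 1.5 times, and no call of a listed gene was lost under it. List counts that it moved by over 1.5 times in the Pcgf1 line and between lines are given with the lists. In the point mutant line it called 8 HIF targets higher in control EBs (5 without it) and 5 in mutant EBs (0), 4 other glycolysis genes higher in control EBs (2), 3 higher in mutant EBs (0) and 4 lower in mutant ESCs (0), and of pyruvate entry 3 higher in control EBs (1) and 1 lower in mutant than control EBs (0). Over all genes it raised the calls in the Pcgf1 line from 5138 to 9050 (control stages), 3770 to 7573 (mutant stages), 132 to 1094 (ESCs) and 402 to 2143 (EBs), those between lines from 744 to 3995, and in the point mutant line those from 960 to 2018, 27 to 102, 515 to 1326 and 918 to 2056. For mutant against control EBs of the Pcgf1 line, all genes split into 222 higher and 180 lower, and into 369 and 184 with quantile normalization. Of 1850 values of members under alternatives, 70 had another sign than the value reported, and no called value changed sign. The cause of these changes was not tested. Unknown depth limits what can be said of the precision of low values.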
